A study of Sus scrofa with 17 samples.

Results

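EIF2AK2, DDX60 and IFIT3 are 3 antiviral genes whose proteins act on RNA, picked by gene identifier from the 26560 genes of the count table. They were picked because they stood higher in G3 than in G1 in these same kidneys, so their values in that contrast are given as a description, without a test. RNA of 17 porcine kidneys, sampled when perfusion ended, was sequenced, each kidney from a different wild-type female Dutch Landrace pig, 6 months to 1 year old, obtained from a slaughterhouse. Every kidney, the controls included, went through 32 min of warm ischemia, 24 h of hypothermic machine perfusion (HMP, cold) and 5 h of normothermic machine perfusion (NMP, at body temperature, with blood cells of the same pig). G1 (n = 5) was given PBS, the vehicle, in both perfusions. G2 (n = 6) was given extracellular vesicles of porcine urine progenitor cells (pUPC-EVs, membrane-bound particles that these cells release) in HMP and PBS in NMP, and G3 (n = 6) was given pUPC-EVs in both. The design holds no group with vesicles in NMP alone and no kidney sampled without perfusion. The vesicle pellets were combined into a pool and then stored in aliquots, so the kidneys do not sample variation between preparations, and the organs had no recipient, so each value describes an isolated kidney.

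Cells detect foreign RNA with sensors such as RIGI and IFIH1 and answer with interferons, whose receptors signal through factors such as STAT2 and IRF9 to switch on antiviral genes. The 3 genes belong to that set and act on RNA in different ways. EIF2AK2 (also called PKR) is a kinase that binds double-stranded RNA and phosphorylates eIF2 alpha, which stops the start of translation. DDX60 is a helicase of the DExD/H-box class that has been tied to RIG-I-type sensing and to blocking translation of viral RNA. IFIT3 is a tetratricopeptide-repeat protein that binds its relative IFIT1, which recognises viral RNA by its cap, and stabilises it. Resting tissue makes these transcripts at a low level and interferon raises them.

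In Sscrofa11.1 (RefSeq), EIF2AK2 (ENSSSCG00000008496) lies at chr3:103041029-103096741. DDX60 (ENSSSCG00000009720) lies at chr14:21077491-21163563. IFIT3 (ENSSSCG00000061268) lies on the same chromosome at chr14:101214730-101225169, between IFIT2 (chr14:101193421-101204292) and IFIT1 (chr14:101237403-101249486). All of these are protein-coding, and the counts cover whole genes, so no exon or isoform is resolved. IFIT genes resemble each other, and how reads that fit several genes were counted is not given in the sources used here. The study also designed a primer pair for porcine EIF2AK2, the only sequences at hand for a member, shown because they mark what its PCR assay would amplify. Both are written 5′ to 3′.
EIF2AK2 forward: ccatctggtcatcatatatcccact
EIF2AK2 reverse: agaaacacggtgaacgacc
The forward primer has 25 bases with 44.0% G or C, and the reverse primer has 19 bases with 52.6%.

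Total counts per kidney ran from 19270046 to 24736473. The numbers in the sample codes form 3 unbroken runs, called code series A, B and C here, whose meaning is not stated. G1 has 2 kidneys in A, 2 in B and 1 in C. G2 has 2 in A and 4 in C, and G3 has 1 in A, 1 in B and 4 in C. Transcripts of the kidney were abundant in every library: 8 proximal tubule markers (LRP2 and CUBN among them) summed to between 6648 and 13450 CPM. CPM stands for counts scaled to a common library total, which edgeR's TMM method adjusts. In G2, kidneys 3 and 6 had the fewest genes detected (at least 1 count), 18926 and 18813 against 19452 to 20891 in the other 4. In G3, kidney 6 had 18968 against 19378 to 21049 in the other 5. The members' means, contrasts and correlations in G2 are given with and without G2 kidneys 3 and 6, a choice made after their values were seen. G3 kidney 6 was kept in those comparisons.

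EIF2AK2, the eIF2 alpha kinase, had close means in G1 and G2, and its mean in G3 was higher than both. The G1 kidneys 1 to 5 had 44.9, 66.1, 84.5, 85.1 and 110.4 CPM. The G2 kidneys 1 to 6 had 63.0, 80.6, 71.4, 71.3, 75.1 and 78.8 CPM, and the G3 kidneys 1 to 6 had 123.6, 75.9, 188.8, 99.2, 151.2 and 115.4 CPM. The G2 kidneys all lay inside the range of G1, and 4 of the 6 G3 kidneys lay above every G1 kidney, while G3 kidneys 2 and 4 did not. The group means were 78.2 ± 24.4 (SD, n = 5) in G1, 73.4 ± 6.32 (n = 6) in G2 and 125.7 ± 39.8 (n = 6) in G3. EIF2AK2 was the member with the least spread in G2, where the SD was 8.61% of the mean, against 31.2% in G1 and 31.7% in G3. Bulk tissue cannot tell more RNA per cell from more cells that make it, here and in every result that follows.

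DDX60, the helicase, had 72 to 986 counts per library, and its G3 kidneys stood clear of its G2 kidneys. The G1 kidneys 1 to 5 had 5.33, 3.29, 6.76, 6.22 and 10.4 CPM. The G2 kidneys 1 to 6 had 7.62, 7.40, 4.22, 5.69, 5.90 and 7.74 CPM, and the G3 kidneys 1 to 6 had 12.3, 9.20, 38.7, 11.7, 22.5 and 17.5 CPM. All 6 G3 kidneys were above all 6 G2 kidneys, and 5 of them were above all G1 kidneys, the exception being G3 kidney 2, which G1 kidney 5 exceeded. The means were 6.41 ± 2.61 (SD, n = 5) in G1, 6.43 ± 1.40 (n = 6) in G2 and 18.7 ± 10.9 (n = 6) in G3. Within G3 the highest kidney had 4.21 times the lowest.

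IFIT3, the partner of IFIT1, differed from the other two in G2. The G1 kidneys 1 to 5 had 42.0, 38.5, 57.4, 77.0 and 71.0 CPM. The G2 kidneys 1 to 6 had 50.3, 41.4, 163.9, 33.4, 49.8 and 202.7 CPM, and the G3 kidneys 1 to 6 had 112.1, 79.0, 338.9, 87.2, 159.2 and 280.8 CPM. In G2, kidneys 3 and 6 were above every G1 kidney and inside the range of G3, whereas the other 4 lay within or below the range of G1. Each G3 kidney exceeded each G1 kidney. The means were 57.2 ± 17.1 (SD, n = 5) in G1, 90.2 ± 73.4 (n = 6) in G2 and 176.2 ± 108.8 (n = 6) in G3, and the medians were 57.4, 50.0 and 135.7. Without kidneys 3 and 6 the G2 mean of IFIT3 was 43.7 ± 8.01 (n = 4), while it was 72.5 ± 7.38 for EIF2AK2 and 6.65 ± 1.00 for DDX60. For IFIT3 the highest G2 kidney had 6.08 times the lowest, against 1.28 for EIF2AK2 and 1.83 for DDX60 in the same 6 libraries.

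**Figure D1:**
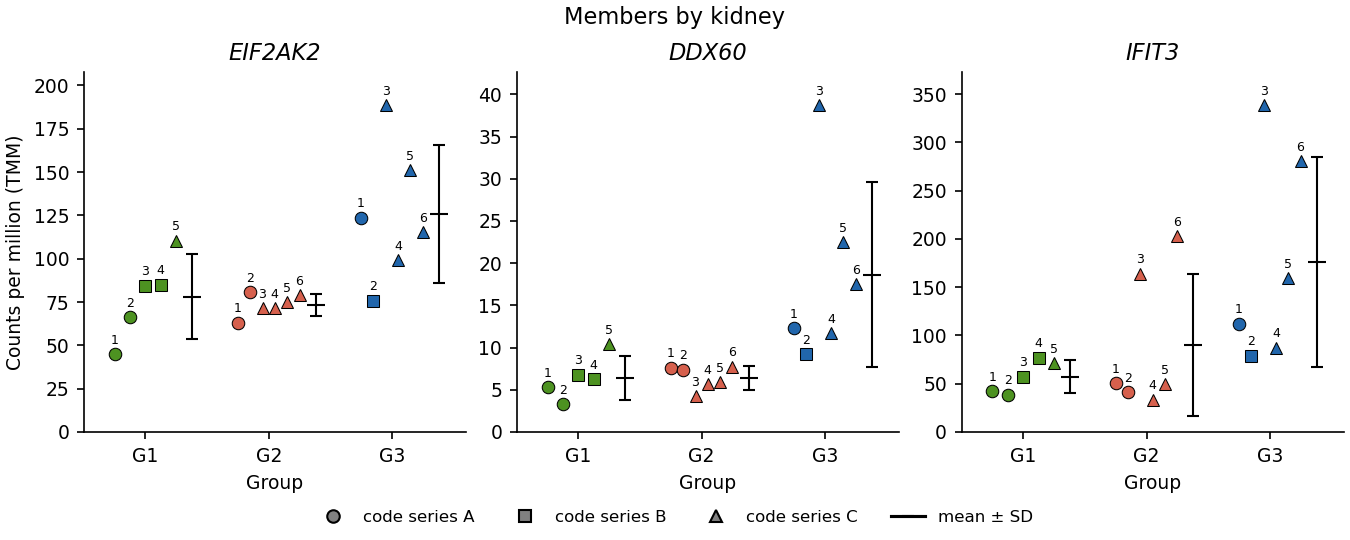
Level of EIF2AK2, DDX60 and IFIT3 in each kidney (CPM, linear axis from 0), by group; numbers are kidney numbers, shapes are code series, and black bars are the group mean ± SD. G2 kidneys lie with G1 for EIF2AK2 and DDX60, whereas for IFIT3 G2 kidneys 3 and 6 reach 163.9 and 202.7 CPM.

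The same kidneys stood at the ends of G3 for each member. G3 kidney 3 was highest for EIF2AK2, DDX60 and IFIT3, and G3 kidney 2 was lowest for each. In G1, kidney 5 was highest for EIF2AK2 and DDX60, and kidney 4 for IFIT3.

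The contrast of G3 with G1 asks what vesicles in both perfusions change relative to vehicle, and it is the one that chose the members. Of 25719 genes, 2 passed an adjusted p under 0.05 (0.00778%) and 4.73% had an unadjusted p under 0.05 (edgeR). DESeq2 called 29 genes, and edgeR with 1 kidney left out called 0 to 9. The fitted log2 fold change (edgeR) was 0.68 (SE 0.229) for EIF2AK2, a fold of 1.60. It was 1.53 (SE 0.346) for DDX60, a fold of 2.89, and 1.61 (SE 0.341) for IFIT3, a fold of 3.06. Across all genes tested, 0.124% had every G3 kidney above every G1 kidney, as IFIT3 did, and 1.07% had at least 5 of the 6 G3 kidneys above every G1 kidney, as DDX60 and IFIT3 did. Since the choice used these values, nothing is read from those counts. The differences were uneven over the code series. Within series A, B and C the G3 mean minus the G1 mean of log2 CPM was 1.18, -0.16 and 0.28 for EIF2AK2. It was 1.53, 0.50 and 0.97 for DDX60, and 1.48, 0.25 and 1.42 for IFIT3. EIF2AK2 was thus lower in the G3 kidney of series B than in the 2 G1 kidneys of that series, and the other two members were higher in G3 in each series. Series A and B hold 1 G3 kidney each and series C holds 1 G1 kidney, so these within-series values have no replicate error on one side. Without G3 kidney 3, the log2 fold changes were 0.52, 1.18 and 1.31.

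The contrast of G2 with G1 asks what vesicles in the cold perfusion change. It shares the G1 kidneys with the choice of the members, which favours lower values in G1. No difference beyond the spread between kidneys was found for any of the 3 genes. The log2 fold change was -0.09 (SE 0.176, edgeR adjusted p = 0.956) for EIF2AK2, 0.00 (SE 0.256, adjusted p = 0.999) for DDX60 and 0.66 (SE 0.414, adjusted p = 0.840) for IFIT3. Of 25699 genes, 0 passed an adjusted p under 0.05 (0.0%) in edgeR, 901 (3.51%) had an unadjusted p under 0.05, and DESeq2 called 1. No member had all its G2 kidneys above G1, where 0.0817% of all genes did. The value for IFIT3 rested on G2 kidneys 3 and 6: it was 0.39 without kidney 3, 0.24 without kidney 6 and, without both, turned to -0.39 (SE 0.202). Kidneys 3 and 6 were the highest of G2 for IFIT3, so leaving them out had to lower its value. Its SE does not reflect that choice. Without both, EIF2AK2 had -0.12 (SE 0.198) and DDX60 had 0.05 (SE 0.271). Within series A and C the G2 mean minus the G1 mean was 0.39 and -0.57 for EIF2AK2, 0.83 and -0.85 for DDX60, and 0.18 and 0.28 for IFIT3. The sign for EIF2AK2 and DDX60 thus turned between these series, with 1 G1 kidney in series C, and series B holds no G2 kidney.

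The contrast of G3 with G2 asks what the second dose, given in the warm perfusion, adds. It shares the G3 kidneys with the choice of the members, which favours higher values in G3. The log2 fold change was 0.78 (SE 0.173, edgeR adjusted p = 0.948) for EIF2AK2, with 5 of 6 G3 kidneys above all G2 kidneys, and 0.327% of all genes had at least 5. It was 1.54 (SE 0.292, adjusted p = 0.706) for DDX60, whose groups did not overlap, as in 0.0584% of all genes tested. For IFIT3 it was 0.97 (SE 0.459, adjusted p = 0.948), with 2 of 6 G3 kidneys above all G2 kidneys. None of the 3 passed the adjusted threshold in this edgeR fit, where 0 of 25701 genes did (0.0%), with 805 (3.13%) at an unadjusted p under 0.05. Without G2 kidneys 3 and 6 the log2 fold change was 0.79 (SE 0.206) for EIF2AK2, 1.48 (SE 0.334) for DDX60 and 2.00 (SE 0.365) for IFIT3. These kidneys were the highest of G2 for IFIT3, so leaving them out had to raise its value. Its SE does not reflect that choice, and G3 kidney 6, also low in genes detected, was kept. DESeq2 called 3 genes in this contrast, DDX60 among them (log2 fold change 1.54, adjusted p = 0.00983). Within series A and C the G3 mean minus the G2 mean was 0.79 and 0.86 for EIF2AK2, 0.71 and 1.82 for DDX60, and 1.30 and 1.14 for IFIT3. All of these within-series differences favoured G3, and series C, with 4 kidneys on each side, is the only series with replicates of both groups. Each pair of contrasts shares a group, so their values are not independent. G2 vs G1 and G3 vs G2 share the G2 kidneys, so that kidneys 3 and 6 raised the first value of IFIT3 and lowered the second.

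**Figure D2:**
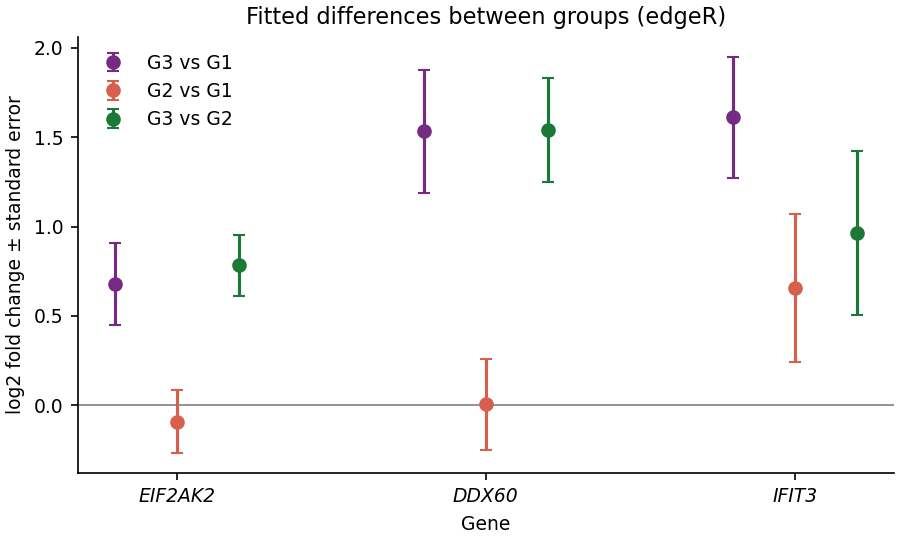
Fitted log2 fold change (edgeR, bars are ± 1 standard error) of each member in the 3 contrasts. EIF2AK2 and DDX60 lie near 0 for G2 vs G1 and at 0.78 and 1.54 for G3 vs G2, whereas IFIT3 has 0.66 and 0.97.

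How the members vary together was described over the 17 kidneys and then in G2 alone, whose kidneys took no part in the choice. Over 17 kidneys, Pearson's r of log2 CPM was 0.881 for EIF2AK2 and DDX60, 0.698 for EIF2AK2 and IFIT3, and 0.706 for DDX60 and IFIT3. The points share libraries and groups, and with each group's mean removed r was 0.757, 0.504 and 0.472. Among the 13711 genes with a mean of at least 1 CPM, DDX60 ranked 4 by likeness to EIF2AK2 and EIF2AK2 ranked 4 by likeness to DDX60, while IFIT3 ranked 58 for EIF2AK2 and 54 for DDX60. In the 6 G2 kidneys, r was 0.126 (Spearman's rho 0.257) for EIF2AK2 and DDX60, with a two-sided exact permutation p of 0.700 for r and 0.658 for rho. For EIF2AK2 and IFIT3, r was 0.199 (rho 0.0857, exact p 0.783 and 0.919), and for DDX60 and IFIT3 r was -0.189 (rho 0.371, exact p 0.744 and 0.497). Over the 3 pairs the smallest Benjamini-Hochberg adjusted p was 0.783 for r and 0.919 for rho (exact permutation). No relation among the members could be shown in G2, and for IFIT3 the kidneys fell into a pair and a set of 4, so that a pooled r mixes the sets. Without the 2 kidneys farthest from the median of the first gene of the pair, r was 0.862, 0.460 and 0.447 over 4 kidneys, as values only. Those were kidneys 1 and 2 for the pairs with EIF2AK2 and kidneys 3 and 6 for DDX60 and IFIT3. Without kidneys 3 and 6, r was -0.201 for EIF2AK2 and DDX60 and -0.277 for EIF2AK2 and IFIT3.

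**Figure D3:**
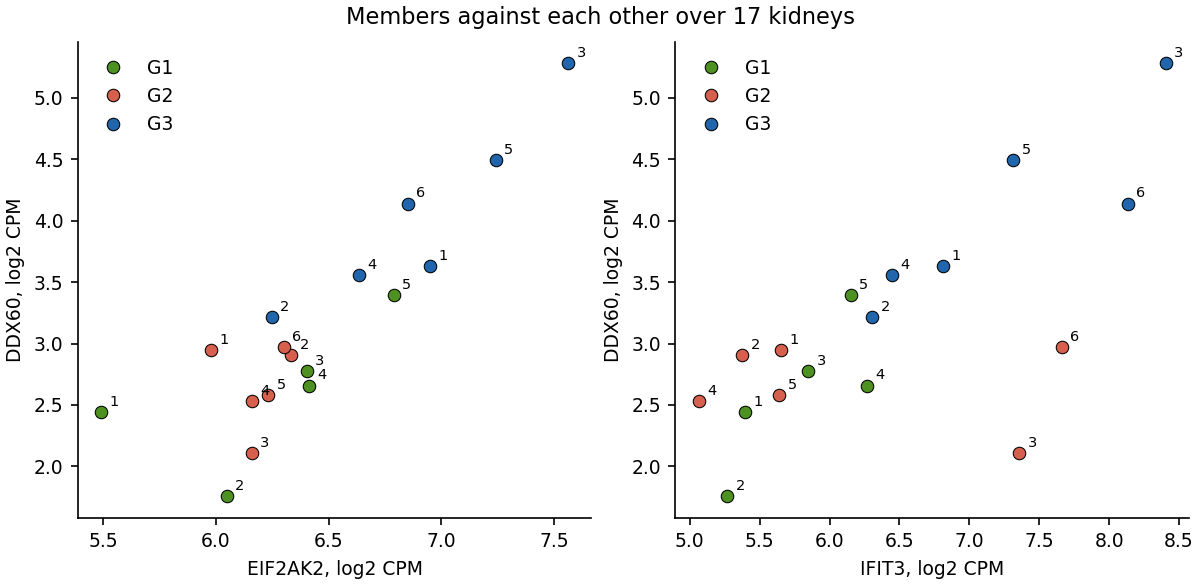
DDX60 against EIF2AK2 (left) and against IFIT3 (right), log2 CPM on both axes, 1 point per kidney, coloured by group and numbered by kidney. G2 kidneys 3 and 6 lie far to the right for IFIT3, with 163.9 and 202.7 CPM, at DDX60 levels of 4.22 and 7.74 CPM.

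For each member, the 5 genes with the most similar pattern over the 17 kidneys were listed by r. For EIF2AK2 they were MORC3, a chromatin-associated ATPase (r = 0.937), ENSSSCG00000017146, which has no symbol in the name table (0.907), IFI44L, an interferon-induced gene (0.903), DDX60 (0.881) and the RNA sensor IFIH1 (0.880). For DDX60 they included SYTL4, a gene of vesicle secretion (0.922), the antiviral ubiquitin ligase TRIM56 (0.898), HERC5, which attaches ISG15 to proteins (0.887), and EIF2AK2 (0.881). For IFIT3 they were the transcription factor BATF2 (0.972), IFIT1 (0.970), the nuclear body protein PML (0.950), the antiviral enzyme RSAD2 (0.942) and MX1, a GTPase that blocks viruses (0.941). No gene stood on more than 1 of these lists of 5, the members themselves aside.

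IFIT3 moved in G2 with other IFIT genes, its neighbours IFIT1 and IFIT2 among them, and with many further genes. Of the 13711 genes, 420 (3.06%), IFIT3 itself included, had r over 0.9 with IFIT3 in G2. Among them were ZNFX1 (0.999), IFIT1 (0.992), BATF2 (0.973), PML (0.973) and IFIT2 (0.946). The 6 G2 kidneys had 16.4, 10.3, 67.7, 10.5, 16.0 and 71.9 CPM of IFIT1. They had 60.3, 36.3, 141.0, 35.9, 38.5 and 111.7 CPM of IFIT2, a pro-apoptotic and antiviral relative, and 56.6, 38.8, 151.0, 48.4, 46.2 and 161.6 CPM of IFIT5, which binds RNA ends. Kidneys 3 and 6 were the highest of G2 for each of these 3 genes, as they were for IFIT3. RSAD2 had 147.5 and 246.6 CPM in these kidneys and 26.7 to 74.1 in the other 4. ADAR, which edits double-stranded RNA, went the other way, with 37.8 and 32.5 CPM against 39.3 to 57.0, and SAMD9, an inhibitor of viral translation, had 42.3 and 51.2 CPM against 57.8 to 138.1. Of the RNA sensors and adaptors with a mean of at least 1 CPM, 7 of 9 were higher in both of these kidneys than in the other 4, and of the effectors 8 of 12 were. Over all 13711 genes 20.6% were higher and 18.0% lower in both, which shows how far these libraries stand apart in general. The kidneys were set apart here after their values were seen. Distal nephron and collecting duct markers also stood apart in G2 kidneys 3 and 6. Their sum over 5 markers was 5883 and 6531 CPM there, against 2480 to 4191 in the other 4. In G3, kidney 6 had a sum of 7491 CPM, while kidney 3, highest for IFIT3, had 3531. The part that the lower number of genes detected and the distal nephron difference have in the IFIT3 values was not tested.

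**Figure D4:**
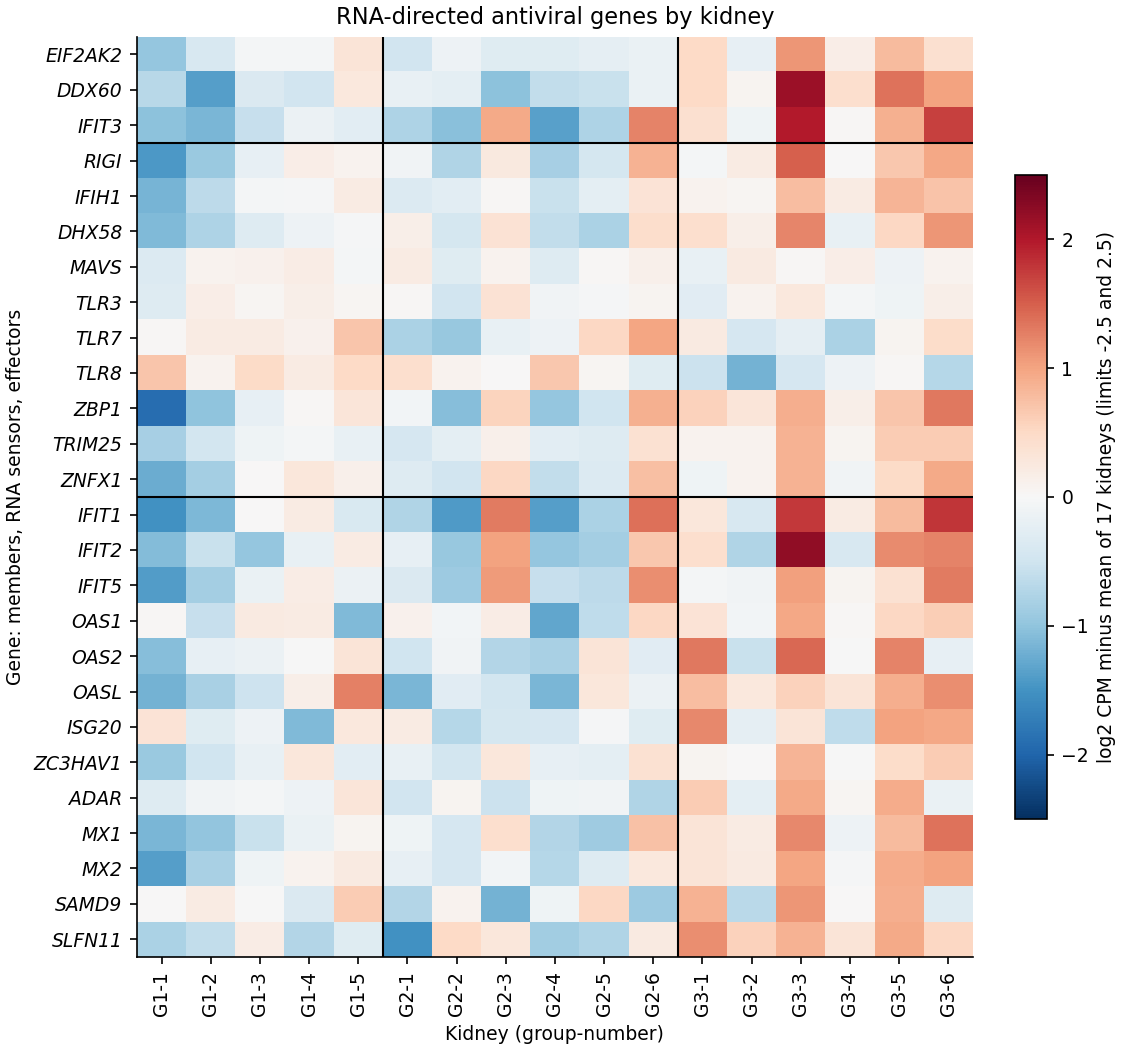
Log2 CPM minus the mean of the 17 kidneys for the 3 members (top), 10 RNA sensors and adaptors (middle) and effectors (bottom), red higher and blue lower, by kidney. IFIT3, IFIT1, IFIT2 and IFIT5 are red in G2 kidneys 3 and 6, where EIF2AK2 and DDX60 are not.

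Of the interferon ligands, which stand at the head of the pathway, 4 were measured, and all had low counts in each library: IFNB1 had 0 to 20 counts, IFNE 0 to 17, IFNK 0 to 12 and IFNG 1 to 13. The interferon alpha family was not analysed here. None of the 4 ligands had an unadjusted p under 0.05 in any contrast. Of 22 measured genes of interferon ligands, receptors and signalling, 6 were higher in G3 than in G1 and 0 lower at an unadjusted p under 0.05 (edgeR), where 1.94% of all genes were higher and 2.79% lower. The receptor chains IFNAR2 (0.37, SE 0.104) and IL10RB (0.34, SE 0.142) were among them, with the transducers STAT2 (0.47, SE 0.173) and IRF9 (0.43, SE 0.133), the transcription factor IRF7 (0.58, SE 0.218) and the feedback inhibitor USP18 (1.05, SE 0.292), all as log2 fold changes. In G2 against G1 the genes at an unadjusted p under 0.05 were IFNAR2 (0.28, SE 0.124) and IL10RB (0.34, SE 0.142), where 1.42% of all genes were higher and 2.09% lower. STAT2 (0.44, SE 0.176), IRF9 (0.43, SE 0.129) and IRF7 (0.52, SE 0.222) were the ones for G3 against G2, with 1.61% of all genes higher and 1.52% lower. The list's median log2 fold change was 0.20, 0.08 and 0.09 in G3 vs G1, G2 vs G1 and G3 vs G2, beside -0.02, -0.01 and -0.00 over all genes. None of these genes passed the adjusted threshold in edgeR in any contrast.

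Among 10 RNA sensors and adaptors, 6 were higher and 1 lower in G3 than in G1 at an unadjusted p under 0.05 (edgeR), beside 1.94% and 2.79% of all genes. The helicase sensors RIGI (log2 fold change 1.00, SE 0.301), IFIH1 (0.73, SE 0.219) and DHX58 (1.02, SE 0.246) were higher, as were the nucleic acid sensor ZBP1 (1.06, SE 0.298), the ligase TRIM25 (0.73, SE 0.174), which ubiquitinates RIG-I, and the RNA helicase ZNFX1 (0.63, SE 0.262). TLR8, an endosomal receptor for single-stranded RNA found mainly in myeloid cells, was lower (-0.98, SE 0.369), at 4 to 22 counts per library. MAVS, the mitochondrial adaptor of the helicase sensors, had 0.02 (SE 0.123), and TLR3, the endosomal receptor for double-stranded RNA, had -0.03 (SE 0.123). In G2 against G1, 0 of the 10 had an unadjusted p under 0.05, beside 1.42% of all genes higher and 2.09% lower. In G3 against G2 5 were higher and 0 lower, beside 1.61% and 1.52%. The median log2 fold change was 0.68, 0.16 and 0.47 in G3 vs G1, G2 vs G1 and G3 vs G2, against -0.02, -0.01 and -0.00 over all genes.

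Of 14 measured effectors that act on RNA or its translation, 11 were higher in G3 than in G1 at an unadjusted p under 0.05, and 0 were lower, beside 1.94% and 2.79% of all genes. The largest log2 fold changes were those of IFIT2 (1.42, SE 0.418), IFIT1 (1.38, SE 0.379), the translation inhibitor SLFN11 (1.26, SE 0.327) and MX1 (1.19, SE 0.265). SLFN11 had only 5 to 49 counts per library. The oligoadenylate synthetases OAS1 (0.61, SE 0.225) and OAS2 (0.91, SE 0.341), which double-stranded RNA activates, were also among the 11. In G2 against G1, 0 of 14 had an unadjusted p under 0.05 (1.42% of all genes higher and 2.09% lower). In G3 against G2, 12 were higher and 0 lower (1.61% and 1.52% of all genes), the 2 others being IFIT1 (0.75, SE 0.501) and IFIT5 (0.34, SE 0.360), both high in G2 kidneys 3 and 6. Of the 12, OASL had only 2 to 20 counts per library. The median log2 fold change was 0.83, 0.07 and 0.76 in G3 vs G1, G2 vs G1 and G3 vs G2, against -0.02, -0.01 and -0.00 over all genes. These sensors and effectors largely respond to interferon, a group known to be higher in G3 when the lists were drawn up, so their counts are no independent support for the members. No sensor or effector passed the adjusted threshold of edgeR in any contrast.

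**Figure D5:**
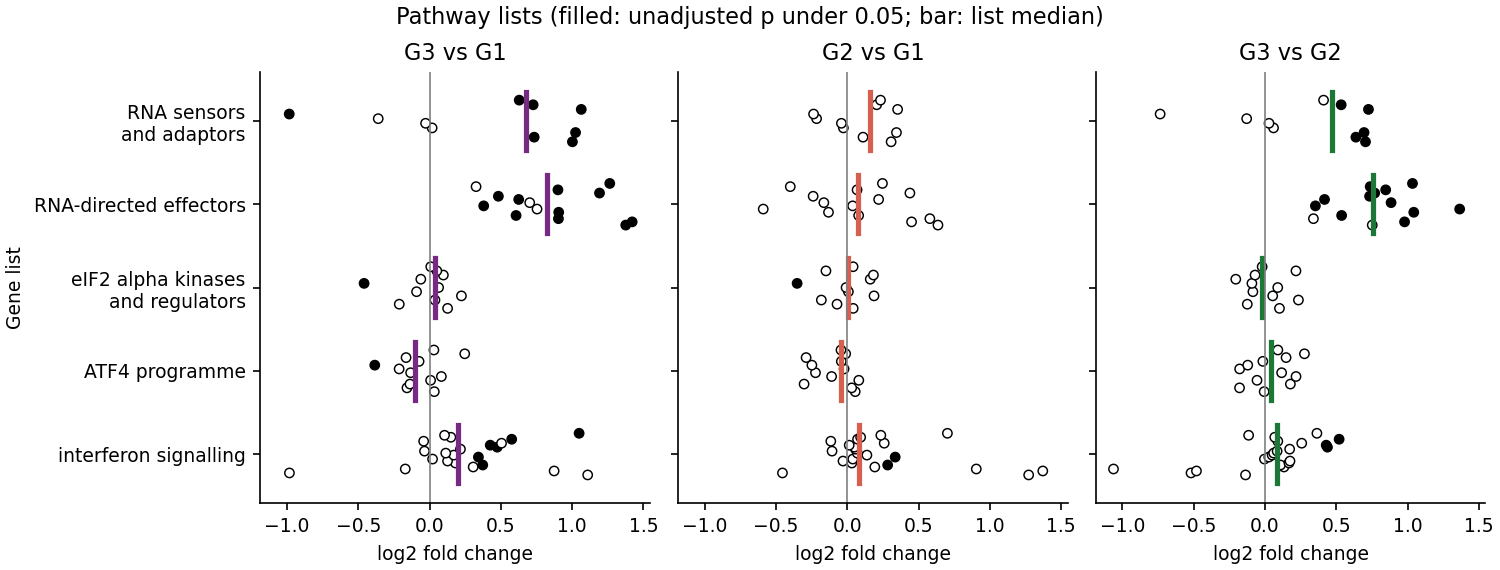
Log2 fold change of each measured gene (circles, filled at an unadjusted edgeR p under 0.05) and the median (bar) of the 5 pathway lists, in the 3 contrasts. The medians of sensors and effectors are 0.68 and 0.83 in G3 vs G1 and 0.16 and 0.07 in G2 vs G1, and those of the eIF2 alpha and ATF4 lists run from -0.10 to 0.04.

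EIF2AK2 is 1 of 4 kinases of eIF2 alpha. The other three, named for their shared substrate, had log2 fold changes in G3 against G1 of 0.13 (SE 0.108) for EIF2AK1, the kinase that answers to heme, -0.21 (SE 0.115) for EIF2AK3, the kinase of the endoplasmic reticulum, and 0.04 (SE 0.170) for EIF2AK4, the kinase that answers to amino acid shortage. Of 11 measured eIF2 alpha kinases and regulators, 0 were higher and 1 lower in G3 than in G1 at an unadjusted p under 0.05, beside 1.94% and 2.79% of all genes. The gene was PPP1R15A, which directs a phosphatase to eIF2 alpha and is itself induced by stress. It had 342.0 to 459.6 CPM in the G1 kidneys, 242.2 to 450.7 in G2 and 222.7 to 343.7 in G3, with log2 fold changes of -0.46 (SE 0.138) in G3 vs G1 and -0.35 (SE 0.157) in G2 vs G1. Of 12 genes of the ATF4 programme, which translation of ATF4 switches on when eIF2 alpha is phosphorylated, 0 were higher and 1 lower in G3 than in G1 at an unadjusted p under 0.05, beside the same shares of all genes: PSAT1, an enzyme of serine synthesis (-0.38, SE 0.149). ATF4 itself had 0.03 (SE 0.128) and DDIT4, a stress-induced inhibitor of mTOR, had 0.25 (SE 0.192). The median over the ATF4 list was -0.10, -0.04 and 0.04 in G3 vs G1, G2 vs G1 and G3 vs G2. RNA counts do not measure phosphorylation or translation.

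Markers of other cells that could carry these transcripts were set beside the members. Summed over 12 leukocyte markers, the level was 112.0 to 157.3 CPM (median 136.3) in G1, 113.1 to 189.4 (141.4) in G2 and 126.4 to 156.5 (138.8) in G3. None of the 12 was at 0 in all kidneys, and the groups' ranges of the sum overlapped. The macrophage marker CD68 made up much of that sum, with means of 71.7, 71.3 and 73.3 CPM. In G2 against G1, 6 of the 12 had a positive and 6 a negative log2 fold change (median 0.04), and 1 was higher and 0 lower at an unadjusted p under 0.05, beside 1.42% and 2.09% of all genes. That gene, CD14, a monocyte and macrophage marker, was higher in every G2 kidney than in every G1 kidney, as 0.0817% of all genes were. Its means were 7.85 ± 1.37 (SD, n = 5), 12.9 ± 2.49 (n = 6) and 9.93 ± 3.12 (n = 6) CPM, with a log2 fold change of 0.72 (SE 0.178, edgeR adjusted p = 0.840) in G2 vs G1. Over 8 endothelial markers the medians were 917.5, 1007 and 1110 CPM in G1, G2 and G3, with 2 of 8 higher and 0 lower in G3 than in G1 at an unadjusted p under 0.05, beside 1.94% and 2.79% of all genes. Both measured red blood cell markers summed to 1.42 to 3.38 CPM in G1, 0.92 to 5.04 in G2 and 0.0948 to 1.96 in G3. Over 5 distal nephron and collecting duct markers the medians were 4032, 4189 and 3926 CPM in G1, G2 and G3. Over 3 tubular injury markers they were 387.1, 573.9 and 416.1 CPM. In G2 against G1, 1 marker of each of these 2 lists was higher and 0 lower at an unadjusted p under 0.05 (edgeR). They were AQP2 (log2 fold change 0.67, SE 0.305) and VIM (0.52, SE 0.202). The part that the CD14, endothelial, red blood cell, distal nephron and tubular injury differences have in the members' values was not tested.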

How the data were processed

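RNA of 17 kidney biopsies was sequenced from stranded mRNA libraries. Per the submitters' processing notes and methods, the authors trimmed reads with cutadapt 4.0, aligned them with STAR to Sscrofa11.1 and deposited, for each gene and kidney, a raw count that was not normalized. The counting program, its strand setting and its handling of reads shared by several genes are not given in the sources used here. A further deposited table holds the authors' own DESeq2 comparison of G3 with G1 (mean, log2 fold change, p-value) and was not used.

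Groups came from the sample labels. Symbols were matched for 15093 of 26560 identifiers. Each pair of groups was compared on its own kidneys with the quasi-likelihood test of edgeR 4.0.16 (R 4.3.3), using TMM, genes with at least 1 count, and Benjamini-Hochberg adjustment over all genes tested, at 0.05. The SE is the log2 fold change over the root of F. Log2 CPM used a prior count of 2. Alternatives were DESeq2 1.42.0, RLE size factors, filterByExpr, a fit of all 17 kidneys, a covariate for code series, a block for the replicate number, and the omission of single kidneys. Omitting G2 kidneys 3 and 6 together was added after seeing the data. Correlations used exact permutation in scipy 1.17.1. The code was tested on simulated data. All 40 pairs of kidneys of 1 group differed by more than counting error (chi-square per degree of freedom 16.5 to 116).

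The members and gene lists were chosen with earlier results of these data known. Genes named from the lists are those with an unadjusted p under 0.05 in a contrast, or else among the most abundant of the list's remaining genes. For interferon ligands and the kinases EIF2AK1 and EIF2AK4, the role decided, after values were seen. Genes named for likeness come from the 5 with the highest r for each member. TRIM22, HELZ2, EIF2B1 and IFNL3 had no matching identifier and were not analysed here. Some genes of the lists and of the likeness ranking are counted but not reported here by name.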

Additional observations from a re-analysis of the deposited data

How the results depend on the processing

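The differences of G3 from G1 and of G3 from G2 kept their sign for each of the 3 members under every alternative run. In G3 vs G1 the log2 fold change was lowest with the code series as a covariate, at 0.45 for EIF2AK2, 1.06 for DDX60 and 1.15 for IFIT3. With 1 kidney left out it ran from 0.52 to 0.84, from 1.18 to 1.79 and from 1.31 to 1.76. In G3 vs G2 these ranges were 0.63 to 0.89, 1.19 to 1.68 and 0.67 to 1.39, IFIT3 being highest without G2 kidney 6. DDX60 passed the adjusted threshold in DESeq2 (1.54, adjusted p = 0.00983, against 0.160 to 0.999 in edgeR with 1 kidney left out). The G3 kidneys took part in the choice of the members, which favours G3 over G2 there.

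In G2 vs G1 the values near 0 changed sign. EIF2AK2 ran from -0.24 to 0.0645 with 1 kidney left out, positive only without G1 kidney 5. DDX60 ran from -0.16 to 0.25 and was -0.0074 with filterByExpr. IFIT3 ran from 0.24 to 0.83, and was 0.39 with the code series as a covariate, against 0.66 without it. It was -0.39 with G2 kidneys 3 and 6 both left out, which was chosen after seeing the data. Among G2 kidneys the correlations with 1 kidney left out ran from -0.0715 to 0.876 for EIF2AK2 and DDX60 (-0.0715 without kidney 2 and -0.0642 without kidney 6), from -0.128 to 0.478 for EIF2AK2 and IFIT3 (-0.128 without kidney 6) and from -0.738 to 0.559 for DDX60 and IFIT3 (0.559 without kidney 3). The cause of these changes was not tested.

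Counts of genes at an adjusted p under 0.05 depended on the tool. For G3 vs G1, 2 genes became 29 with DESeq2, 1 with filterByExpr, 0 with all 17 kidneys in the fit (1126 at an unadjusted p under 0.05), 11 with a covariate for code series, and 0 to 9 with 1 kidney left out, 9 without G1 kidney 5 and 0 without G1 kidney 1 or 3 or G3 kidney 2 or 5. Whether a member is among the calls of G3 vs G1 is not given under any setting, since that contrast chose the members. For G2 vs G1, 0 became 1 with DESeq2 and 2 with the code series. For G3 vs G2, 0 became 3 with DESeq2 and 0 to 5 with 1 kidney left out, 5 being the count without G2 kidney 2.

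The replicate numbers did not pair the kidneys consistently. Same-numbered deviations correlated from -0.171 to 0.408 in G3 vs G1, -0.0603 to 0.144 in G2 vs G1 and -0.255 to 0.445 in G3 vs G2. In these contrasts 3 of 5, 2 of 5 and 2 of 6 pairs were over 0.1. Of the first group's kidneys, 3 of 5, 0 of 5 and 1 of 6 correlated best with their own number. With the number as a replicate block the calls were 9 in G3 vs G1, 0 in G2 vs G1 and 7 in G3 vs G2. IFIT3 was among the last (log2 fold change 1.12, edgeR adjusted p = 0.0280), in a contrast where the choice of the members favours G3. In G2 vs G1 the block gave -0.0021 for DDX60 and 0.02 for IFIT3.

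The groups of 5 and 6 kidneys differ in code series, which cannot be told apart from group where a series lacks one. DDX60 had as few as 72 counts in a library, and interferon ligands at most 20, where the SE of a log2 fold change was 0.559 to 0.977.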
